A study of Homo sapiens with 6 samples.

Results

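The deposited table held 44 microRNA genes of the minus strand, in 45 of its 3437 rows, besides the cluster of MIR183 and the genes MIR3184 and MIR3529. Members were taken as rows with an NR_ accession whose RefSeq gene symbol starts with MIR and a digit and whose RefSeq class is miRNA, and no symbol starting with MIRLET was among them. All 688 NR_ rows of the table, microRNA genes included, are named as 3′ UTRs on the minus strand of hg19. A row therefore stands for a stretch at the gene and not for a UTR of a coding transcript. MIR6511B1 had 2 rows with equal values and was counted once.

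Short RNA came from Caco2, an established human cell line of the colon epithelium. One genotype, Caco2 WT, was unmodified, and the other, PIWIL2 KO, carried a CRISPR/Cas9 knockout of PIWIL2. Both were grown to confluency and sequenced as 3 samples each. The PIWIL2 KO line was 1 clone, chosen because it survived selection, and full-length PIWIL2 was lowered in it rather than lost. For each strand, the 3 samples of a genotype share 1 value in the table, so neither an SD between replicates nor a test between the genotypes could be had. The values are in CPM, in which read counts are scaled to library size, here to the reads with a unique place in hg19. PIWIL2 has no row among those used here, so the knockout was not checked in these values. By the spacing of low values, 1 read was estimated at 0.0776 CPM in the WT pool, or about 12900000 reads in total. In the KO pool it was estimated at 0.0738 CPM, or about 13500000 reads. Each ratio of PIWIL2 KO (KO below) to Caco2 WT (WT below) is followed by its exact 95% counting interval on estimated reads, which covers counting error only. These read numbers treat the 3 samples of a genotype as 1 pool, while the study describes its values as averages over them. In these bulk extracts, RNA per cell and the share of cells that hold it cannot be told apart.

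MicroRNA genes are transcribed as long precursors. DROSHA cuts out a hairpin, DICER1 cuts the hairpin to a short duplex, and 1 strand is loaded into an Argonaute protein, where bases 2 to 8, the seed, guide it to matching sites in mRNAs. PIWIL2 belongs to the PIWI branch of the Argonaute proteins, which bind piRNAs and are not known as the carriers of microRNAs. Many microRNA genes lie in clusters transcribed as 1 precursor, and genes with a common seed form families. The piPipes software is built to set aside reads that match ribosomal RNA and microRNA hairpins before it aligns the rest to the genome. Whether this was done here is not given in the sources used here. The values below are short RNA assigned to each row, and were not read as levels of mature microRNA.

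The families are shown by their mature sequences, with the seed in capitals, because the seed decides which genes are grouped. Mature sequences were taken from a table of RefSeq sequences (GRCh38.p14) and matched 40 of the 44 genes. MIR30D, MIR320A, MIR451A and MIR483 were not matched and entered no seed family. By shared seed, 10 genes fell into 5 families of 2. The first is the miR-30 family, represented by MIR30A and MIR30C2, whose 5p sequences differ at 5 places over their common length:
hsa-miR-30a-5p: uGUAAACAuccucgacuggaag
hsa-miR-30c-5p: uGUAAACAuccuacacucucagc
The second is the family of miR-221-3p and miR-222-3p on the X chromosome:
hsa-miR-221-3p: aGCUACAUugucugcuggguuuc
hsa-miR-222-3p: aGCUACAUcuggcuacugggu
The third is the pair miR-103a and miR-107, which differ at 1 base:
hsa-miR-103a-3p: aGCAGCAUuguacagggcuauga
hsa-miR-107: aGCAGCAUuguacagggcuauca
The fourth is miR-181, with 3 differing places between the 5p sequences of MIR181A1 and MIR181B1:
hsa-miR-181a-5p: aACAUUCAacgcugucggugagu
hsa-miR-181b-5p: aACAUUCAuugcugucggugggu
The fifth joins miR-92a and miR-25, which differ at 4 places:
hsa-miR-92a-3p: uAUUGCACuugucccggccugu
hsa-miR-25-3p: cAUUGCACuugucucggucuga

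Several of the sequences above occur in more than 1 gene. RefSeq lists miR-103a-3p also in MIR103A2, miR-30c-5p in MIR30C1, miR-92a-3p in MIR92A1, and the 5p sequences of miR-181a and miR-181b in MIR181A2 and MIR181B2. In all, 11 members had a mature sequence that another gene of this set holds as well, and 29 had none. The set lacked some genes, so further copies may be missed. Of 80 values up to 100 estimated reads, 67 were whole numbers of reads within 0.15 read, or 83.8%. The other 13 values belonged to 10 members, and 7 of these 10 had a mature sequence in several genes. MIR181A1 and MIR181B1, for example, came to 16.5 and 14.5 estimated reads in the KO, and MIR30C2 to 69.5. The MIR6511B1 rows and MIR6511A2, with copies on chromosome 16, were each listed at 0.12 CPM in WT and 0.05 CPM in the KO. Their values cannot be assigned to 1 copy. Among the 70 mature sequences of the members, 23 start with U, or 32.9%, against 36.9% of the 2351 distinct mature sequences in the RefSeq set used.

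On the sense strand, the 44 genes summed to 299 CPM in WT and 376 CPM in the KO, a ratio of 1.26 (1.20 to 1.31). This was 5.43% and 5.08% of the sense CPM of the table. All rows of the table together had a sense ratio of 1.34 (1.33 to 1.36), and the 96 rows of small nucleolar RNA (snoRNA) genes 1.38 (1.37 to 1.40). The sum of the microRNA genes was therefore higher in the KO as deposited, by less than that of the table. It rested on few genes. MIR30D, MIR222 and MIR7-1 held 81.4% of it in WT and 85.1% in the KO. Without these 3 genes the other 41 summed to 55.8 and 56.2 CPM, a ratio of 1.01 (0.907 to 1.12).

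Past a minimum mean of 0.3 CPM there were 24 members, of which 14 were higher and 10 lower in the KO. Over all rows past the same minimum, 68.9% were higher and 30.4% lower. Shares of all rows include the members and count repeated rows of a gene separately, while members are counted once per gene. FBXO31 and NCS1, both at least 2-fold lower, have such repeated rows. The median log2 ratio, taken after adding 0.1 CPM to both values, was 0.19 over the 24 members and 0.48 over all 161 rows. Changes relative to the table are thus obtained by taking 0.48 off the log2 ratio of a gene. At least 2-fold higher were 3 of the 24 members (12.5%), MIR30A, MIR192 and MIR181B1, against 27.3% of all rows. At least 2-fold lower were 3 (12.5%), MIR330, MIR339 and MIR5001, against 8.70% of all rows. MIR192, MIR339 and MIR5001 passed the minimum only through the genotype in which they were high, so the filter favours their being counted, and no member was 2-fold higher or lower with a minimum mean of 1 CPM. The counting interval lay above a ratio of 1 for 6 members (25.0%; 41.6% of all rows) and below 1 for 4 (16.7%; 9.94% of all rows). Against the median ratio of all rows in place of 1, the interval lay above it for MIR30D and MIR192 (8.33%; 20.5% of all rows) and below it for 9 members (37.5%; 21.7% of all rows). The snoRNA rows, with a median log2 ratio of 0.68, make up 81 of the 161 rows, and whether the lower position of the microRNA genes differs from chance was not tested.

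**Figure D1:**
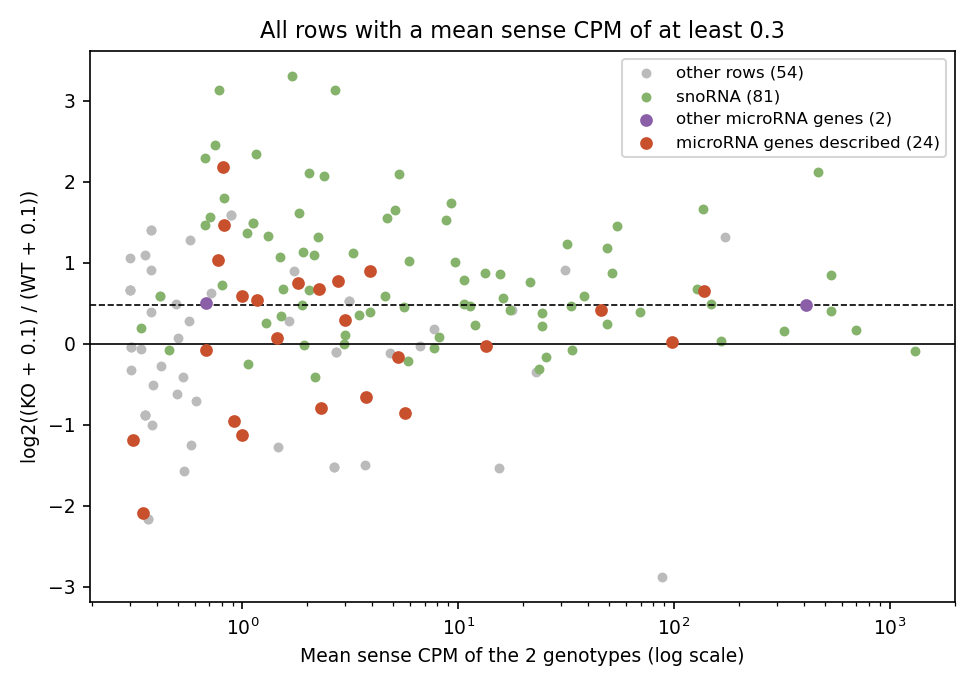
Log2 ratio of sense CPM (KO to WT, 0.1 CPM added to both) against the mean sense CPM of both genotypes on a log axis, for the 161 rows past a mean of 0.3 CPM, in colours for the 24 microRNA genes described, 2 other microRNA genes, 81 snoRNA rows and other rows. The solid line marks equal CPM and the dashed line the median of all rows at 0.48; the microRNA genes scatter on both sides of each line.

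The most abundant member was MIR30D, a gene of the miR-30 group by its name, on chromosome 8. Its sense value was 107 CPM in WT, from 1383 estimated reads, and 168 CPM in the KO, from 2281 reads. The ratio was 1.57 (1.47 to 1.68), a log2 ratio of 0.65, or 0.17 above the median of all rows. MIR30D alone made up 35.8% of the members' sense CPM in WT and 44.8% in the KO. The other miR-30 genes lie on chromosome 6, in the long non-coding gene LINC00472. MIR30C2 (chr6:72086663-72086734) overlaps an annotated exon. It was at 2.71 CPM in WT and 5.13 CPM in the KO, a ratio of 1.88 (1.23 to 2.90). Since MIR30C1 also holds miR-30c-5p, the values of MIR30C2 and sums with it cannot be assigned to this gene alone. MIR30A (chr6:72113254-72113324), in an intron, was at 0.39 and 1.25 CPM, a ratio of 3.24 (1.15 to 11.2) on 5 and 17 reads. All 3 miR-30 genes had intervals above 1, as had 41.6% of all rows, and the intervals overlap each other. Against the median ratio of all rows, the interval of MIR30D alone lay above it, and those of MIR30C2 and MIR30A included it. Their sum, grouped by name after the values had been seen, was 110 CPM in WT and 175 CPM in the KO, a log2 ratio of 0.66 (0.57 to 0.76). The pair with a listed common seed, MIR30C2 and MIR30A, had a log2 ratio of 1.04 (0.48 to 1.61).

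MIR222 and MIR221, whose products are known to target the cell cycle inhibitor p27, start 836 bases apart on the X chromosome. MIR222 (chrX:45606421-45606530) lies in an intron and MIR221 (chrX:45605585-45605694) in an exon of the long non-coding gene MIR222HG. MIR222 was at 96.9 CPM in WT and 98.8 CPM in the KO, a ratio of 1.02 (0.944 to 1.10). MIR221 was at 13.7 and 13.4 CPM, a ratio of 0.979 (0.791 to 1.21). Both were nearly equal in CPM between the genotypes, and both intervals lay below the median ratio of all rows. MIR222 held 87.6% (85.8 to 89.3) of the reads of the pair in WT and 88.1% (86.4 to 89.7) in the KO. The balance within the cluster therefore differed by less than counting error.

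MIR7-1 is a gene of miR-7, a microRNA known from neural and endocrine cells, in an annotated exon of HNRNPK (chr9:86584663-86584772). It was at 39.3 CPM in WT and 52.6 CPM in the KO, a ratio of 1.34 (1.19 to 1.503). The log2 ratio of 0.42 lay 0.07 below the median of all rows, so MIR7-1 stood near the middle of the table. In the RefSeq set used here, the 5p sequence is also listed for MIR7-3, and the 3p sequence for MIR7-1 only. That set lacked some genes, so further genes with the 5p sequence are possible. The reads were not assigned to an arm in the table, and both are shown with their seeds in capitals:
hsa-miR-7-5p: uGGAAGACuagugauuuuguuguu
hsa-miR-7-1-3p: cAACAAAUcacagucugccaua
The row of HNRNPK itself, at the 3′ UTR, was at 0.01 CPM in both genotypes.

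**Figure D2:**
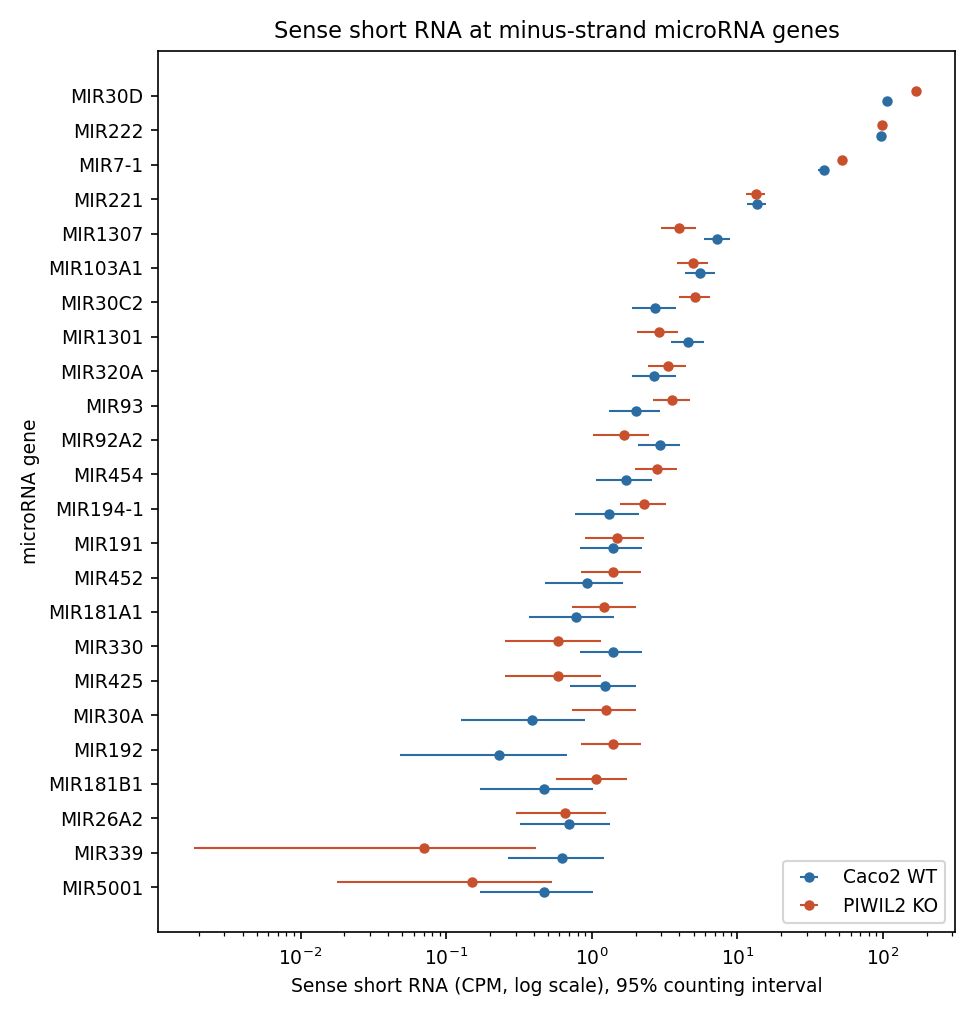
Sense CPM on a log axis of the 24 microRNA genes with a mean of at least 0.3 CPM, in WT (blue) and KO (orange), with exact Poisson 95% counting intervals on estimated reads and genes ordered by their mean. MIR30D, MIR222 and MIR7-1 lie above 39 CPM, and below 2 CPM the intervals of most genes overlap between the genotypes.

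Among members with less sense short RNA in the KO, 3 genes of moderate level had intervals below 1. MIR1307 (chr10:105154010-105154158), in an exon of ATP5MK, which encodes a subunit of the mitochondrial ATP synthase, was at 7.29 CPM in WT and 3.99 CPM in the KO. Its ratio was 0.547 (0.384 to 0.772). MIR1301 (chr2:25551509-25551590), in an intron of the DNA methyltransferase gene DNMT3A in this annotation, was at 4.58 and 2.88 CPM, a ratio of 0.629 (0.409 to 0.959). MIR92A2 (chrX:133303568-133303642), a gene of the miR-106a locus, was at 2.95 and 1.66 CPM, a ratio of 0.551 (0.310 to 0.956). Its KO value came to 22.5 estimated reads, of which the ratio uses 22. Since MIR92A1 also holds miR-92a-3p, the values of MIR92A2 cannot be assigned to this gene alone. All 3 intervals lay below 1 and below the median ratio of all rows. None of these genes shares a listed seed with another of the 3. Sequences of MIR1307 and MIR1301 follow, miR-92a-3p is shown above, and miR-1301-5p and miR-92a-2-5p are not printed:
hsa-miR-1307-5p: uCGACCGGaccucgaccggcu
hsa-miR-1307-3p: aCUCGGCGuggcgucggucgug
hsa-miR-1301-3p: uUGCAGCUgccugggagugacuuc
MIR339 (chr7:1062569-1062662), in an intron of C7orf50, was the fourth, at 0.62 and 0.07 CPM. These are 8 and 1 estimated reads, a ratio of 0.119 (0.0027 to 0.887).

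MIR93 and MIR25 lie 208 bases apart in MCM7, which encodes a subunit of the replicative helicase. They did not stand at like levels. MIR93 (chr7:99691391-99691470) was at 2.02 CPM in WT and 3.54 CPM in the KO, a ratio of 1.76 (1.07 to 2.95). MIR25 (chr7:99691183-99691266) was at 0.16 and 0.07 CPM, or 2 reads and 1 read. MIR93 held 92.9% (76.5 to 99.1) of the reads of the pair in WT and 98.0% (89.1 to 99.9) in the KO. Summed, the cluster had a log2 ratio of 0.73 (0.04 to 1.46). By seed MIR25 belongs with MIR92A2, and that family had a log2 ratio of -0.85 (-1.68 to -0.09). Both sums are set by the partner of MIR25, since MIR25 gave 3 reads in all.

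MIR103A1 and MIR107 lie in introns of PANK3 and PANK1, genes of pantothenate kinases, which make coenzyme A. MIR103A1 was at 5.58 CPM in WT and 4.97 CPM in the KO, a ratio of 0.886 (0.625 to 1.25). MIR107 was at 0.16 and 0.32 CPM, on 2 and 4 estimated reads. The family summed to 5.74 CPM in WT and 5.29 CPM in the KO, a log2 ratio of -0.12 (-0.60 to 0.38), which is within counting error. Although the 3p sequences differ at only 1 base, MIR103A1 held 97.3% (90.6 to 99.7) of the reads of the pair in WT and 94.4% (86.2 to 98.4) in the KO.

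MIR181A1 and MIR181B1 start 171 bases apart on chromosome 1, in introns of MIR181A1HG, and are both family and cluster. MIR181A1 (chr1:198828173-198828282) was at 0.78 CPM in WT and 1.22 CPM in the KO. MIR181B1 (chr1:198828002-198828111) was at 0.47 and 1.07 CPM, a ratio of 2.22 (0.802 to 7.05). Both were higher in the KO by value, and neither interval was free of 1. The sum had a log2 ratio of 0.87 (-0.03 to 1.85).

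MIR191 and MIR425, the remaining cluster, start 470 bases apart in introns of DALRD3. MIR191 (chr3:49058051-49058142) was at 1.40 CPM in WT and 1.48 CPM in the KO, a ratio of 1.06 (0.531 to 2.12). MIR425 (chr3:49057581-49057667) was at 1.24 and 0.59 CPM, a ratio of 0.476 (0.176 to 1.18). Within the cluster MIR191 held 52.9% (35.1 to 70.2) of the reads in WT and 71.4% (51.3 to 86.8) in the KO. The intervals overlap, so no shift of balance was detectable at this depth.

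**Figure D3:**
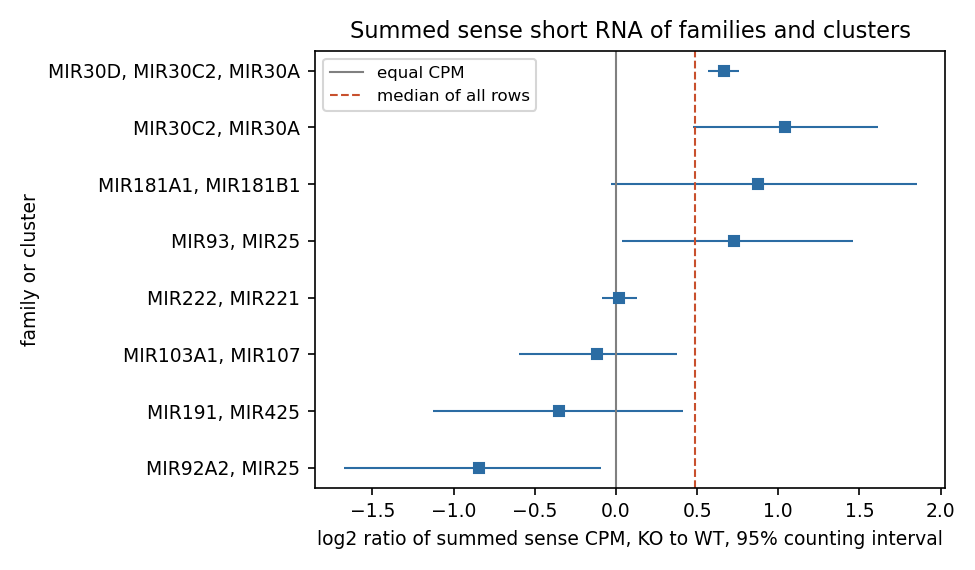
Log2 ratio of summed sense CPM, KO to WT, for each seed family and genomic cluster and for the 3 miR-30 genes by name, with exact 95% counting intervals. The solid line marks equal CPM and the dashed line the median of all rows at 0.48; the miR-30 sums lie at 0.66 and 1.04, MIR222 with MIR221 at 0.02 and MIR92A2 with MIR25 at -0.85.

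Of 16 symbols listed for microRNA genes known from intestinal epithelium, 3 were members, namely MIR192, MIR194-1 and MIR31. All NR_ rows lie on the minus strand, so plus-strand genes of the list could not be members. Listed minus-strand genes were missing too, such as MIR194-2 of the MIR192 cluster. The number of members is therefore no measure of these cells. MIR192 (chr11:64658609-64658718), in an exon of MIR194-2HG, was at 0.23 CPM in WT and 1.40 CPM in the KO. The ratio of 6.03 (1.77 to 31.8) rested on 3 and 19 estimated reads, and MIR192 passed the minimum through the KO value only. MIR194-1 (chr1:220291499-220291583), opposite an intron of IARS2, was at 1.32 and 2.29 CPM, a ratio of 1.74 (0.931 to 3.34). MIR31 (chr9:21512114-21512184) was at 0.08 and 0.37 CPM, on 1 read and 5 reads. All 3 were higher by value in the KO, as were 68.9% of all rows past 0.3 CPM, a minimum that MIR31 did not reach. Of these 3 genes, MIR192 alone had an interval above 1. Their mature sequences are shown since the group was chosen by tissue and not by seed, and no seed is common to them:
hsa-miR-192-5p: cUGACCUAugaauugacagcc
hsa-miR-194-5p: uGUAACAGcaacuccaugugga
hsa-miR-31-5p: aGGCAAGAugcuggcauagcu

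The lists for other tissues held 1 member. It was MIR451A, of 6 blood cell genes, at 0.16 CPM in WT and 0.07 CPM in the KO, or 2 reads and 1 read. None of 8 genes listed for mesenchyme and vessels, 10 neural, 6 muscle and 1 liver gene was a member, and those genes were not analysed here. In these lists too, plus-strand genes could not be members. Of 24 genes listed for minus-strand clusters, 9 were members, of which 7 passed 0.3 CPM. The machinery of microRNA processing was seen only through 5 rows of AGO4, LIN28A and TNRC6B, of 15 genes listed. The highest of these rows was at 0.03 CPM in WT and all were at 0 in the KO. At the level of single reads, this allows no statement on those genes.

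The other members past 0.3 CPM had intervals that include 1. MIR320A, on chromosome 8, was at 2.68 CPM in WT and 3.32 CPM in the KO, a ratio of 1.22 (0.769 to 1.96). MIR454 (chr17:57215119-57215233), in an intron of SKA2, was at 1.71 and 2.80 CPM, a ratio of 1.64 (0.948 to 2.92). MIR452 (chrX:151128100-151128184), in an exon of GABRE, was at 0.93 and 1.40 CPM. MIR330 (chr19:46142252-46142345), in an exon of EML2, was at 1.40 and 0.59 CPM. The ratio of MIR330 was 0.423 (0.159 to 1.02), so its 2-fold difference was within counting error. MIR26A2, in an intron of the phosphatase gene CTDSP2, had 9 estimated reads in each genotype. MIR5001 was at 0.47 and 0.15 CPM, a ratio of 0.317 (0.0313 to 1.77).

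**Figure D4:**
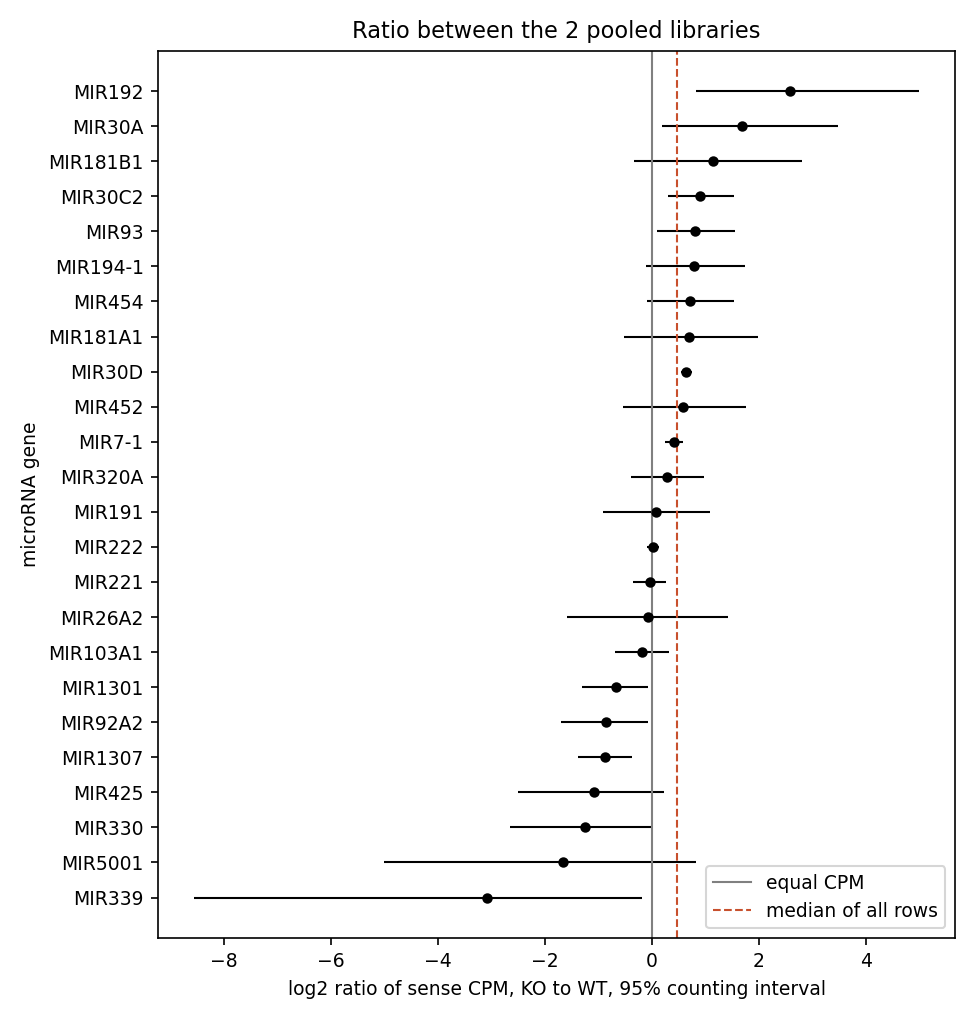
Log2 ratio of sense CPM without an added constant, KO to WT, with exact 95% counting intervals, for the 24 microRNA genes with a mean of at least 0.3 CPM, ordered by ratio. Intervals of 6 genes lie above equal CPM (solid line) and of 4 below it; those of MIR30D and MIR192 lie above the median of all rows (dashed line, 0.48).

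Below 0.3 CPM on the sense strand were 20 members, which summed to 2.70 CPM in WT and 2.35 CPM in the KO, a ratio of 0.870 (0.522 to 1.45). No more than 3 reads in either genotype and on either strand stood behind 16 of the 44 genes. The low group held MIR449C, at 0.39 and 0.15 CPM, MIR1296, at 0.23 and 0.22 CPM, MIR15A, at 0.23 and 0.15 CPM, and MIR10A, at 0.23 and 0.07 CPM. MIR483, MIR767 and MIR3944 were each at 0.08 CPM in WT and 0.07 CPM in the KO, that is, 1 read in each. These genes cannot be ordered by ratio at this depth.

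Each member was seen on 1 strand alone. Of the 44 genes, 42 had sense values only, 2 had antisense values only, and 0 had both. MIR30D, with 2281 sense reads in the KO, was listed at 0 on the antisense strand, which allows an antisense share of up to 0.132%, and MIR222 allows up to 0.224%. The same held at like levels in the table, where the 16 members and all 91 other rows with a mean sense value of 1 CPM or more had no antisense values. Below that level the members had few reads on which a second strand could be seen.

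The antisense members were MIR371B and MIR103B2, each of which lies opposite another microRNA gene. MIR371B, on chromosome 19, overlaps MIR371A, a gene known from pluripotent cells, and MIR103B2, on chromosome 20, overlaps MIR103A2. In both cases the antisense reads have the orientation of the gene on the plus strand. MIR371B was at 0.85 antisense CPM in WT and 0.15 in the KO, on 11 and 2 estimated reads, a ratio of 0.173 (0.0186 to 0.793). It was the only member past a mean of 0.3 antisense CPM and was lower by at least 2-fold. So were 22.2% of the 9 rows of the table past that minimum, MIR371B included, while 0% were higher by 2-fold. These 9 rows hold IL12RB2 in repeated rows with equal values. Of the same 9 rows, 88.9% were lower by value, and the interval lay below 1 for 33.3%, MIR371B included. MIR371B passed the minimum through the WT value only, so the filter favours a lower value in the KO. MIR103B2 was at 0.08 and 0.15 antisense CPM, on 1 read and 2 reads. Together the members had 0.93 antisense CPM in WT and 0.30 in the KO, a log2 ratio of -1.63 (-3.75 to 0.07), or 0.310% (0.160 to 0.541) and 0.0785% (0.0214 to 0.201) of their reads. The sequence of miR-103b is shown because it is the reverse complement of miR-103a-3p within the length they share:
hsa-miR-103b: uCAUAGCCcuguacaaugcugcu
hsa-miR-371b-5p: aCUCAAAAgauggcggcacuuu
hsa-miR-371b-3p: aAGUGCCCccacaguuugagugc

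By position, 36 of the 44 genes lay within another annotated gene of the same strand, 26 of them within a protein-coding gene and 19 within an intron of one. The other 8 included MIR30D, MIR320A, MIR92A2 and MIR194-1. For 5 members a same-strand protein-coding gene around them had rows of its own in the table. JMJD1C, the gene around MIR1296, was at 0.16 CPM in WT and 0.41 CPM in the KO, and CTDSP2, around MIR26A2, at 0.08 and 0.04 CPM. IGF2, around MIR483, was at 0.10 and 0.13 CPM, and FBXL18, around MIR589, was listed at 0 in both. For MIR7-1 and MIR26A2 the microRNA row held far more sense CPM than the 3′ UTR row of the gene around it. For MIR26A2 this rests on 9 estimated reads in each genotype. MIR1296, at 0.23 and 0.22 CPM, was above JMJD1C in WT only. MIR483, at 0.08 and 0.07 CPM, was below IGF2 in both. MIR589 was at 0.08 and 0.22 CPM, on 1 read and 3 reads.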

How the data were processed

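Single-end short RNA reads came from 3 samples per genotype. The authors removed the adapter using Cutadapt 1.15, ran the small RNA pipeline of piPipes on hg19, and deposited sense CPM per genotype, scaled to uniquely mapped reads and rounded to 2 decimals, with 1 value for its 3 samples, which the paper describes as an average. Only part of the low values, 53.7% in Caco2 WT and 44.7% in PIWIL2 KO, fell on 1 step per genotype. The samples were treated here as 1 pool of reads, an assumption that these shares do not settle. Were the values averages of separately scaled samples, read numbers and intervals would be approximate. Antisense values were deposited on the same scale (RPM, which for reads equals CPM).

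Rows were matched to RefSeq symbols by accession, and 55 rows had no match. Positions are the hg19 starts of the row names, and ends come from GENCODE release 44 mapped to GRCh37, the same build. Starts were equal for all 35 of the 44 genes matched there. Hairpin ends of the other 9 are not given. The CPM worth of 1 read was the step that made most values up to 2 CPM whole within 0.0055 CPM. At this step 53.7% of 859 low values in Caco2 WT and 44.7% of 988 in PIWIL2 KO were whole, so read numbers are estimates. For a listed 0, an expected count of up to 3 reads was taken as the limit, or 0.233 and 0.221 CPM. No molecular identifiers were used, so reads are not independent molecules, and intervals (Clopper-Pearson, or Poisson in the plot of CPM) cover counting error only. Seed families join genes that share bases 2 to 8 of any mature sequence. Clusters join genes whose starts lie within 10000 bases.

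Named genes are the 15 most abundant on the sense strand, those past 0.3 antisense CPM, the lowest and highest 5 log2 ratios past 1 CPM, members of families and clusters, and members of the fixed lists. MIR5001, MIR339, MIR330, MIR26A2, MIR107 and other genes below 0.3 CPM were named after their values were seen. The members and lists were chosen with earlier results of these data known. Both the step and the intervals were checked with simulated counts, drawn as whole reads from 1 pool per genotype. Fractional reads and averages of 3 samples were not simulated, so the check does not cover them. Other settings of pseudocount, CPM minimum, scaling, repeated rows and single genes were tried. Python 3.11.15, numpy 2.4.6, pandas 2.3.3 and scipy 1.17.1 were used.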

Additional observations from a re-analysis of the deposited data

How the results depend on the processing

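No paired analysis was possible because each genotype has 1 pooled column per strand, and for the same reason no replicate could be left out. Apart from the sense median, 34 of 52 alternatives stayed within the counting interval or within 1.5 times the count. The sense sum depended on scaling and on single genes. Its log2 ratio of 0.33 became -0.090 when PIWIL2 KO was rescaled to the sum of all rows (a shift of -0.42) and -0.15 when rescaled to their median (a shift of -0.48). It was 0.11 without MIR30D. Further settings were picked once the values were known. They gave 0.0090 without MIR30D, MIR222 and MIR7-1, and -0.0063 over the 29 members whose mature sequences are listed in 1 gene. MIR30D, MIR320A, MIR451A and MIR483 had no matched sequence and are not among these 29. The last value therefore also reflects the absence of MIR30D, and does not show what limiting the sum to sequences of 1 gene does by itself. The family and cluster sum of MIR221 and MIR222 moved from 0.02 to -0.40 and -0.46 under these 2 scalings, and that of MIR103A1 and MIR107 to -0.60 under the second, while the miR-30, miR-181 and MIR93 sums kept log2 ratios above 0. The interval of MIR93 with MIR25 then included 0 under both scalings, as did that of miR-181 with and without them and that of MIR30C2 with MIR30A under the second scaling (-0.0084 to 1.13). The 3 miR-30 genes by name were at 0.24 (0.15 to 0.34) and 0.18 (0.08 to 0.28).

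The sense median was 0.19 as reported, and -0.06 with no minimum, -0.11 rescaled to the sum and -0.17 rescaled to the median, so its sign is not fixed. The count at least 2-fold lower on the sense strand was 3, and 6 under either scaling. With a pseudocount of 1 CPM, or with a minimum mean of 1 CPM, it was 0, as was the count at least 2-fold higher. On the antisense strand the count at least 2-fold lower was 0 with a pseudocount of 1 CPM, and no member passed a minimum mean of 1 CPM. Without MIR371B the antisense sum had a log2 ratio of 0.91, on 1 read and 2 reads. An interval around a ratio rests on reads of 2 pooled libraries, and the spread between cultures is unknown.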
